A study of Mus musculus with 15 samples.

Results

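The serotonin receptor genes examined were *Htr1a*, *Htr1b*, *Htr1d*, *Htr1f*, *Htr2a*, *Htr2c*, *Htr3a*, *Htr4*, *Htr5a* and *Htr7*, 10 of the 23235 genes of a cortical RNA-seq table, chosen by name. The study asked what *116HG*, the spliced host transcript of the *Snord116* small nucleolar RNAs (snoRNAs) at the Prader-Willi locus, binds in brain and what its loss changes. RNA was sequenced from adult brain cortex of wild type (WT) C57BL/6J mice and of *Snord116del* (+/-) mice, strain B6(Cg)-Snord116tm1.1Uta/J, which carry the deletion on the paternal allele in all cells. The cortices were taken at Zeitgeber times Zt +6 and Zt +16, counted in hours from lights on, so that the former fell in the day and the latter in the night of the mice, from 3 WT samples at Zt +6 and 2 samples in each of the other 3 groups. The labels of 1 of the WT and both *Snord116del* samples at Zt +6 name a processed table other than the one analysed, so which mice entered the Zt +6 values is not certain. *116HG* occupancy was measured by ChIRP-seq, in which biotinylated oligos antisense to an RNA pull down the chromatin bound to it. The brain samples were 2 WT replicates with *116HG* oligos, 1 WT with non-specific control (NSC) oligos, and 1 *Snord116del* with each oligo set, 1 hemisphere being used for a preparation. The *Snord116del* *116HG* library and both NSC libraries served as controls, giving 5 peak lists in all.

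Serotonin is made by raphe neurons of the brainstem and acts in cortex through receptors of several classes. The Htr1 receptors and Htr5a couple to inhibitory Gi/o proteins and lower cyclic AMP, the Htr2 receptors couple to Gq and phospholipase C, Htr4 and Htr7 couple to Gs and raise cyclic AMP, and Htr3a forms a cation channel. *Htr2c* pre-mRNA is edited from adenosine to inosine and spliced at alternative sites, and the brain snoRNA *Snord115*, encoded beside *Snord116*, is its proposed partner because a stretch of the snoRNA is antisense to the edited exon.

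That antisense stretch was found in the mouse sequence and set *Htr2c* apart from the other receptor genes. In the NCBIM37 assembly (mm9, the build of the peak lists), an unbroken run of 18 bases of *Htr2c* was the reverse complement of 105 of the 137 annotated *Snord115* copies (76.6%), and in 4 of those copies the run was 19 bases long. The 18-base run ended directly before the CTGA of the snoRNA in all 105 copies. It is shown here because it is the pairing on which the proposed targeting rests, with the 18 paired bases in capitals in each sequence. The *Htr2c* stretch is chrX:143604202-143604279 on the plus strand, and the snoRNA is the sequence carried by 33 identical copies among those holding the run, the first at chr7:66648931-66649009 on the minus strand.
Htr2c: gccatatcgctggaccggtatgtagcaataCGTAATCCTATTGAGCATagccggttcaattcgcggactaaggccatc
Snord115: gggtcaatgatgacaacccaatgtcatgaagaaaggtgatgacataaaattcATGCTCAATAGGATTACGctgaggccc

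The run lay in coding sequence in exon 6 of the 7 exons of transcript Htr2c-001. That exon, chrX:143604113-143604313, is held whole by 2 of the 8 annotated *Htr2c* transcripts. Another 2 transcripts use a shorter form that ends at base 143604218, 13 bases before the run, and the remaining 4 hold neither form. The paired stretch is therefore absent from the annotated short form, and a gene-level value cannot tell the forms apart. With G:U pairs allowed the longest run at *Htr2c* was 20 bases. The 18-base run occurs 106 times in the genome on both strands.

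The other 9 receptor genes had short runs only. Their longest unbroken runs with *Snord115* were 9 to 12 bases, and 14.7% of 22611 coding genes have a run of at least 12 bases. Only 1 coding gene, *Htr2c*, had at least 18 bases, and 6 had at least 17. With the 27 *Snord116* copies, *Htr1a* and *Htr2c* had the longest runs among the receptor genes, at 13 bases, a length reached by 1.47% of coding genes. For *Htr1a* that run was present in 26 of the 27 copies and for *Htr2c* in 1 copy. These runs describe letters only, and pairing in cells was not measured.

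**Figure D1:**
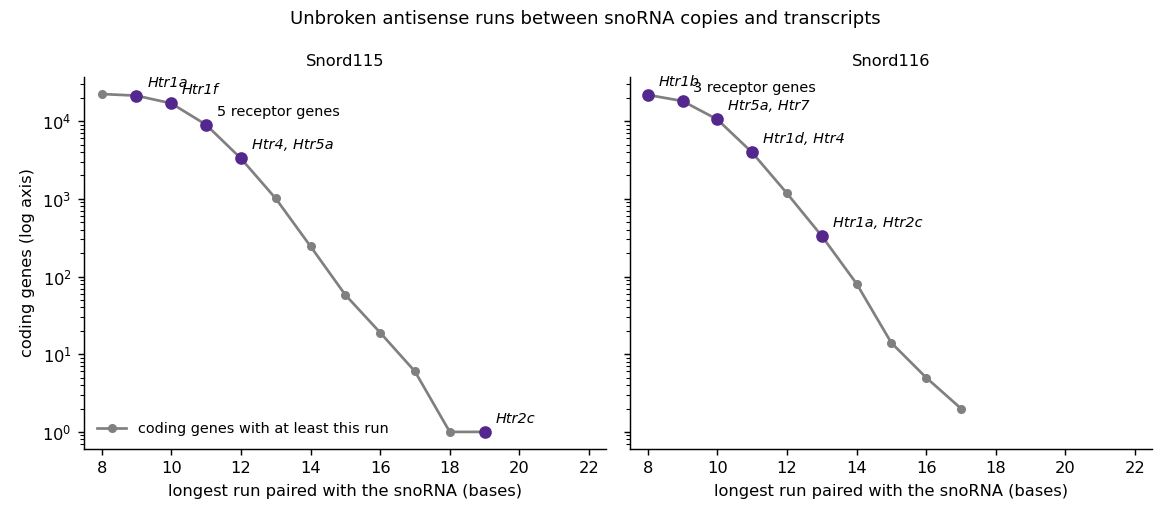
Number of coding genes (log axis) whose annotated transcripts hold an unbroken antisense run of at least the given length with any *Snord115* copy (left) or *Snord116* copy (right); purple points mark the serotonin receptor genes at their own longest run. *Htr2c* stands alone at 19 bases for *Snord115*, and the other receptor genes lie at 9 to 12 bases.

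Transcript levels of the receptor genes were low in all 4 groups, with *Htr2a* highest. The table gives 1 FPKM value (fragments mapped per length of transcript, scaled to the depth of the library) per group, combined over mice by the authors, so there are no replicates, no p-value and no error for any value below, and the depth behind them is not in the table. FPKM is per length, so levels are compared between genes on that scale. Differences between groups still moved with transcript length, as given below, and the order of genes within a group carries that limit. A difference is called by a fold rule: FPKM + 1 differs at least 1.5-fold, the higher group has at least 1 FPKM, and the mean over the 4 groups is at least 1 FPKM. In bulk cortex, fewer cells of a type and less RNA per cell cannot be told apart. None of the 10 genes was at 0 in any group, and 1, 5, 1 and 3 of them reached 1 FPKM in WT Zt +6, *Snord116del* Zt +6, WT Zt +16 and *Snord116del* Zt +16. Their summed FPKM was 10.1, 17.8, 10.6 and 12.8 in the same order of groups. Their median FPKM was 0.535, 1.10, 0.385 and 0.483, below the median of the 10297 tested genes, which was 3.17, 5.63, 2.90 and 4.00.

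*Htr2a*, the main excitatory serotonin receptor of cortical pyramidal neurons, had 5.17 FPKM in WT Zt +6, 6.89 in *Snord116del* Zt +6, 6.91 in WT Zt +16 and 7.78 in *Snord116del* Zt +16. It was first in every group and made up 51.2%, 38.6%, 65.0% and 60.8% of the summed FPKM of the 10 genes. It exceeded the next gene by 1.81-fold to 5.45-fold in 3 groups and by more in WT Zt +16, so it was separated from its neighbour by more than the 1.5-fold of the rule in each group. It was also the gene whose level varied least, with a highest to lowest ratio of 1.51, against 12.1 for *Htr1f* and 9.57 for *Htr5a*.

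*Htr5a*, a Gi/o-coupled receptor found mainly in the nervous system, had 0.967 FPKM in WT Zt +6, 3.80 in *Snord116del* Zt +6, 0.397 in WT Zt +16 and 0.607 in *Snord116del* Zt +16. The *Snord116del* Zt +6 value stood well above the other 3. *Htr2c*, a Gq-coupled receptor with roles in feeding and mood, had 0.892, 1.72, 0.706 and 0.719 FPKM in the same order. It too was highest in *Snord116del* Zt +6, and both Zt +16 groups had nearly the same value. *Htr1a*, the somatodendritic and postsynaptic Gi/o-coupled receptor, had 0.990, 1.49, 0.799 and 1.43 FPKM. Both *Snord116del* groups lay above both WT groups for this gene.

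*Htr1b* and *Htr1d*, the Gi/o-coupled receptors of nerve terminals, differed from each other in pattern. *Htr1b* had 0.495, 1.29, 0.250 and 0.292 FPKM, with its highest value in *Snord116del* Zt +6. *Htr1d* had 0.575, 0.324, 0.922 and 1.27 FPKM, with its lowest value in that same group. *Htr1f*, another Gi/o-coupled receptor, had 0.195, 0.827, 0.0684 and 0.110 FPKM. *Htr7*, coupled to Gs, had 0.379, 0.906, 0.372 and 0.359 FPKM. For both, *Snord116del* Zt +6 was the highest group. *Htr3a*, the subunit of the serotonin-gated channel found in a class of cortical interneurons, had 0.251, 0.290, 0.149 and 0.168 FPKM, and *Htr4*, coupled to Gs, had 0.179, 0.307, 0.0550 and 0.0630 FPKM. These were among the lowest of the family, with both Zt +6 groups above both Zt +16 groups. The 6 genes *Htr1b*, *Htr1d*, *Htr1f*, *Htr3a*, *Htr4* and *Htr7* had a mean under 1 FPKM and were not tested.

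Below *Htr2a* the order of levels was loosely defined. In WT Zt +6, *Htr1a*, *Htr5a* and *Htr2c* followed within 1.5-fold of their neighbours, and in WT Zt +16 *Htr1d*, *Htr1a* and *Htr2c* did. In *Snord116del* Zt +6, *Htr5a* was second and separated from *Htr2c* by 2.21-fold, and *Htr2c*, *Htr1a* and *Htr1b* were not separated from one another by the 1.5-fold rule. In *Snord116del* Zt +16, *Htr1a* and *Htr1d* shared the places after *Htr2a*, followed by *Htr2c* and *Htr5a*. The remaining receptor genes of the table, *Htr2b*, *Htr3b*, *Htr5b* and *Htr6*, had a summed FPKM of 0.886, 1.31, 0.718 and 0.642, and none was tested.

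**Figure D2:**
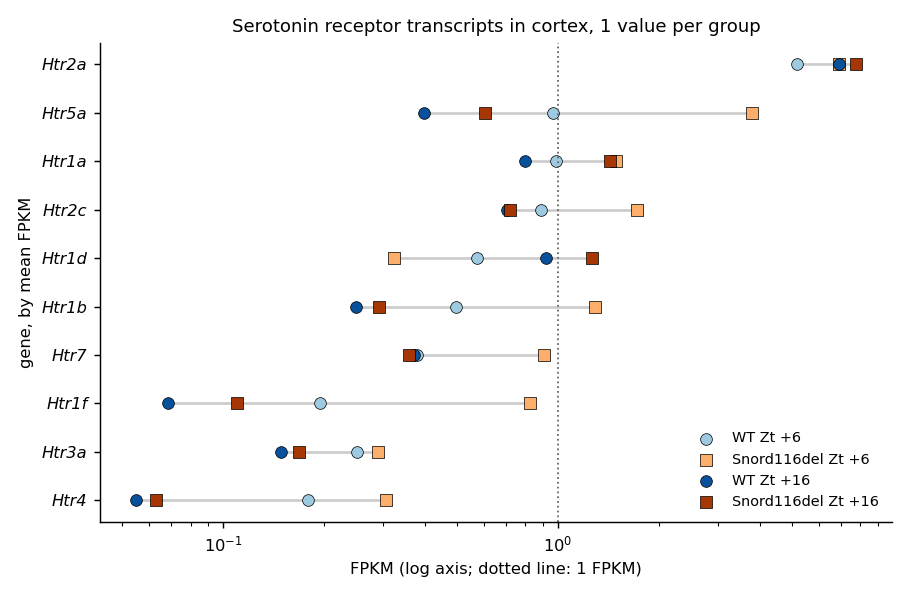
FPKM (log axis) of the 10 serotonin receptor genes, ordered by mean, with 1 point per group: circles WT, squares *Snord116del*, pale Zt +6, dark Zt +16, and the dotted line at 1 FPKM. *Htr2a* lies at 5.17 to 7.78 FPKM, above every other receptor gene in each group. The *Snord116del* Zt +6 point is the highest for 8 of the 10 genes. The median of all tested genes was also highest in that group, at 5.63 FPKM against 2.90 to 4.00 in the others. The share of all genes highest there is not reported here.

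Of the 4 tested genes, *Htr5a*, *Htr2c* and *Htr1a* had to be well expressed in a *Snord116del* group to pass the filter, since their WT values were all under 1 FPKM, and counts over tested members carry no weight on direction. At Zt +6, 1 of the 4, *Htr5a*, was called, higher in *Snord116del*, while 56.9% of all 10297 tested genes were called at this time (49.3% higher, 7.62% lower). The share among the 4 was thus below the background. *Htr5a* was 3.93-fold higher by the ratio of FPKM, a difference of 1.29 in log2(FPKM + 1), the scale used for all differences here, which understates changes of low genes. The median difference over all tested genes was 0.57. *Htr2c* was 1.93-fold higher by the ratio and its difference was 0.52, just short of the rule and below the all-gene median. *Htr2a* and *Htr1a* were higher by smaller ratios, with differences of 0.35 and 0.32, and neither was called. Among genes not tested, the ratio was 4.25 for *Htr1f*, 2.61 for *Htr1b*, 2.39 for *Htr7*, 1.71 for *Htr4* and 1.16 for *Htr3a*. *Htr1d* was 1.77-fold lower. These are ratios of low values. The differences of *Htr1f*, *Htr1b* and *Htr7* were 0.61, 0.62 and 0.47, beside the all-gene median of 0.57.

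The size of these differences depended on the scale on which the groups were compared. When the 4 groups were brought to a common median, the all-gene median at Zt +6 moved from 0.57 to -0.060 and the split of called genes from 49.3% higher and 7.62% lower to 15% and 24.4%. *Htr5a* stayed called on that scale, at 0.73, whereas *Htr2c* had 0.061 and *Htr1a* and *Htr2a* turned to -0.13 and -0.35. Of the 4 tested genes, *Htr5a* alone was past the rule on both scales.

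Differences also moved with transcript length. Across 10165 tested genes with an annotated length, Spearman's rho of the *Snord116del* minus WT difference on transcript length was 0.63 at Zt +6 and -0.38 at Zt +16, a description across genes, which are not independent replicates. *Htr5a* has a transcript of 5576 bases, and genes of about that length had a running median of 1.03 at Zt +6, leaving 0.26 of its 1.29. *Htr2c*, with a longest transcript of 4883 bases, lay 0.41 below the running median of 0.94 at its length. *Htr1a* (4441 bases) and *Htr2a* (2971 bases) were 0.54 and 0.17 below theirs. With the length trend removed, 0 of the 4 genes were called at Zt +6, against 26.2% of all genes, and the part of length in the difference at *Htr5a* was not tested further.

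**Figure D3:**
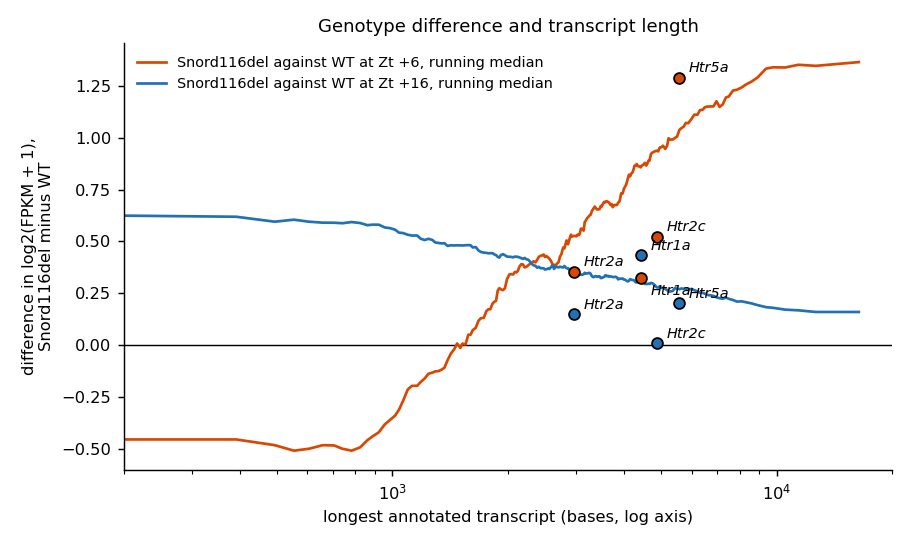
Difference in log2(FPKM + 1) between *Snord116del* and WT against the longest annotated transcript (bases, log axis); lines are running medians over 501 genes at Zt +6 (orange) and Zt +16 (blue), and points the 4 tested receptor genes. At Zt +6 *Htr5a* lies 0.26 above the line for its length and *Htr2c*, *Htr1a* and *Htr2a* lie below it.

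At Zt +16 the genotypes were closer. None of the 4 tested genes was called, while 19.2% of all tested genes were (19% higher, 0.204% lower). That background shrank to 1.74% (1.22% higher, 0.515% lower) with the groups at a common median and to 1.3% (0.311% higher, 0.991% lower) at a common total. *Htr1a* had the largest difference, 0.43, or 1.79-fold by the ratio, *Htr5a* had 0.20 (1.53-fold), *Htr2a* had 0.15 and *Htr2c* 0.011 (1.02-fold), beside an all-gene median of 0.35. The difference of *Htr1d*, not tested, was 0.24. The direction of *Htr2a* and *Htr2c* was not stable: after scaling to a common median their values were -0.26 and -0.20.

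The genotype difference at Zt +6 minus that at Zt +16 was 1.09 for *Htr5a*, larger than in 87.9% of tested genes. It was 0.51 for *Htr2c* (63.0% of genes below), 0.20 for *Htr2a* and -0.11 for *Htr1a*. The size for *Htr5a* rests on the same *Snord116del* Zt +6 value as the call above, and with 1 value per group the differences between times were not tested.

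Between the times of day, none of the 4 genes was called in WT cortex, where 16% of all tested genes were (5.71% higher and 10.3% lower at Zt +16). The split was 10.8% and 9.48% at a common median and 0.505% and 29% at a common total. *Htr5a* had the largest WT difference, -0.49 at Zt +16 against Zt +6, then *Htr2a* at 0.36, and *Htr2c* and *Htr1a* both had -0.15. In *Snord116del* cortex, *Htr5a* and *Htr2c* were called, both lower at Zt +16, where 64% of all tested genes were called (25% higher, 39.1% lower). At a common median the split was 35% higher and 26.5% lower, and at a common total 8.31% and 66.6%. *Htr5a* and *Htr2c* passed the filter only through their *Snord116del* Zt +6 values, so their direction here carries no weight. *Htr5a* was 6.26-fold and *Htr2c* 2.39-fold lower at Zt +16 by the ratio, with differences of -1.58 and -0.66. *Htr2a* (0.16) and *Htr1a* (-0.034) were not called. Of the genes not tested, *Htr1f* and *Htr1b* were 7.49-fold and 4.42-fold lower by ratios of low values (differences of -0.72 and -0.83). *Htr1d* was higher by 0.78. After scaling to a common median the *Htr2c* value was -0.37 and not called, and that of *Htr5a* was -1.19 and called. With the length trend removed, the direction of *Htr2c* reversed (0.17, not called), and the 2 genes called were *Htr5a*, lower, and *Htr1a*, higher by 0.69. The comparisons share groups, so agreement between them is not a separate result.

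**Figure D4:**
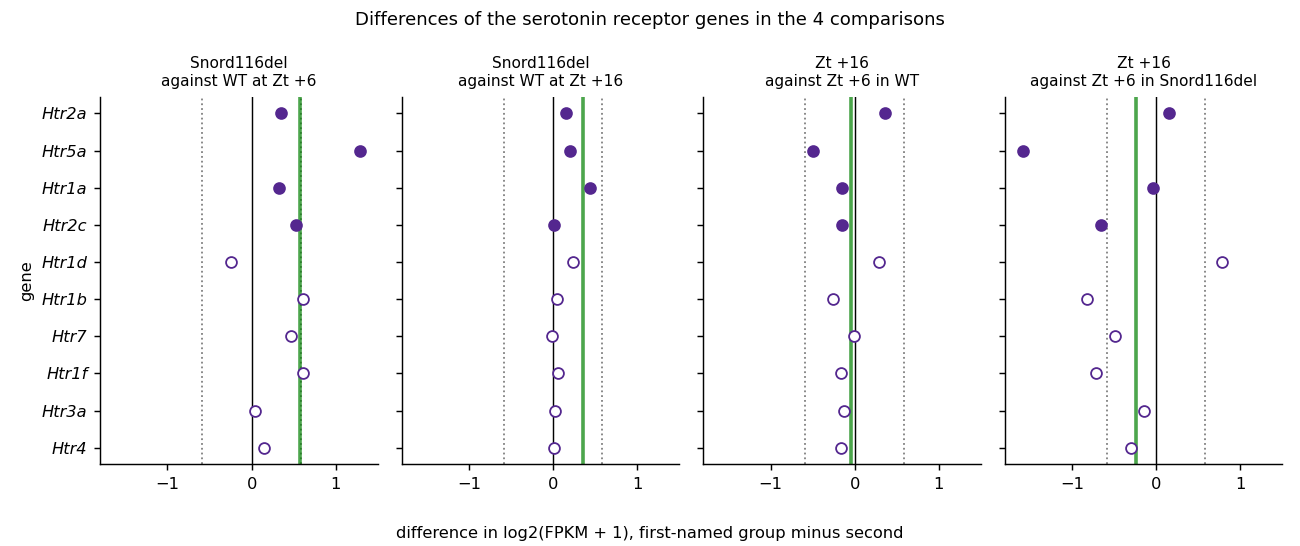
Differences in log2(FPKM + 1) of the 10 genes in the 4 comparisons, first-named group minus second; filled points are tested genes, open points are not tested, the green line is the median of all tested genes and dotted lines mark the 1.5-fold rule. *Htr5a* lies farthest from 0 in both comparisons that include *Snord116del* Zt +6, at 1.29 and -1.58. It passed the filter only through that group.

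The genes with the pattern over the 4 groups most like that of *Htr2c*, by distance of centred log2(FPKM + 1) over 4 group values, were *Gm15645* (0.0365), *Baz2a* (0.0469), *Cd97* (0.0518), *Dusp14* (0.0545) and *E130114P18Rik* (0.0555). The other tested receptor genes were not among these nearest genes. By the same distance over the 10297 tested genes they came at rank 2448 for *Htr1a*, 4699 for *Htr2a* and 6001 for *Htr5a*.

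Effector genes downstream of the receptors were mostly higher in *Snord116del* at Zt +6, where 49.3% of all tested genes were, and the counts for these lists depended on the scale. At Zt +6, 8 of 9 tested G protein subunit genes were higher in *Snord116del* and 1 lower, with a median difference of 0.91 against 0.57 for all tested genes. *Gnaq*, through which Htr2 receptors signal, had 4.05 FPKM in WT and 12.9 in *Snord116del*, and *Gnao1*, of the Gi/o class, had 51.1 and 118. *Gnas*, the Gs subunit used by Htr4 and Htr7, was the lower gene, with 778 and 431 FPKM. Of 11 tested effector genes (adenylyl cyclases, phospholipase C, protein kinase C and the IP3 receptor), 10 were higher and 0 lower, with a median of 1.36. Among them *Adcy3* (0.727 and 2.97 FPKM) passed the filter only through *Snord116del* Zt +6. Its direction in comparisons with that group carries no weight. *Plcb1*, a phospholipase C downstream of Gq, had 9.01 and 25.3 FPKM, and *Itpr1*, the calcium release channel, had 18.3 and 59.5. The longest annotated transcripts of the tested effectors had a median of 5621 bases, against 3087 for tested genes. With the length trend removed 3 of the 11 were called, all higher, beside 26.2% of all genes called (12.6% higher). With the groups at a common median, 7 of the 11 effectors were higher and 0 lower, beside 15% and 24.4% of all tested genes. Of the 9 G protein genes 2 were higher and 1 lower on that scale.

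Of 9 tested receptor partners and regulators, 0 were higher and 3 lower at Zt +6 at a common median, beside 15% and 24.4% of all tested genes. Without that scaling 5 were higher and 1 lower (median 0.76), beside 49.3% and 7.62%. The lower gene was *S100a10*, which binds Htr1b and Htr4 and brings them to the cell surface, at 17.6 FPKM in WT and 9.07 in *Snord116del*. *Mpdz*, a scaffold that binds the tail of Htr2c, had 2.32 and 6.25 FPKM. Of the 3 editing enzyme genes 2 were tested and 1 was called, *Adarb1*, at 3.80 and 9.27 FPKM. *Adar* had 8.11 and 12.1 FPKM and was not called. Of 5 tested genes for synthesis, transport and breakdown of serotonin, *Maoa* (1.64 and 3.03 FPKM) and *Maob* (0.878 and 2.64), the enzymes that break serotonin down, were higher. *Maob* passed the filter only through its *Snord116del* Zt +6 value, so its direction carries no weight. *Spr*, which makes the cofactor of the synthesis enzyme, was lower, at 49.6 and 12.1 FPKM. At a common median 0 of these 5 and 0 of the 2 editing enzyme genes were higher, and 2 of the 5 were lower.

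At Zt +16 the counts were 1 of 9 for G proteins (*Gnao1*), 1 of 11 for effectors (*Adcy5*), 4 of 9 for partners (*Arrb1*, *Arrb2*, *Cc2d1a* and *Hes5*), 1 of 5 for synthesis and breakdown (*Qdpr*) and 0 of 2 for editing enzymes, all higher in *Snord116del*, beside 19% of all tested genes. With the groups at a common median or total, 0 genes of these 5 lists were called, beside 1.74% and 1.3% of all tested genes. Between times in *Snord116del* cortex, where 39.1% of all tested genes were lower and 25% higher at Zt +16, 6 of 9 G protein genes and 9 of 11 effectors were lower, and *Gnas* was higher. At a common median 3 G protein genes and 7 effectors were lower, beside 26.5% of all tested genes. *Gnaq* had 12.9 FPKM at Zt +6 and 3.06 at Zt +16. Partners divided evenly, 4 higher and 4 lower. *Adarb1* was lower at Zt +16, as was *Maob*, with the same limit from the filter, and *Spr* and *Qdpr* were higher. In WT cortex the counts were 1 higher and 2 lower for G proteins, 0 and 2 for effectors, 2 and 0 for partners, and 0 for the other lists, beside 5.71% of all tested genes higher and 10.3% lower. The 5 listed microRNAs from *Htr2c* introns that the table holds were at 0 in all groups.

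Markers of tissues and cell types that carry these receptors moved between groups as well. Cortical excitatory neuron markers, which check the labelled tissue, were all 9 tested and summed to 372, 889, 234 and 358 FPKM in WT Zt +6, *Snord116del* Zt +6, WT Zt +16 and *Snord116del* Zt +16. The 10 choroid plexus markers, from a tissue rich in *Htr2c*, summed to 218, 213, 30.8 and 37.6 FPKM. Most of that was *Ttr*, at 200, 182, 24.9 and 29.6 FPKM, and *Folr1* and *Kl* were under 1 FPKM in every group. Both Zt +6 groups thus had a higher sum than both Zt +16 groups. Counted by gene, 2 of the 3 tested choroid plexus markers (*Enpp2* and *Kcnj13*) were higher in *Snord116del* at Zt +6 and 0 lower (median 0.88). Of all tested genes 49.3% were called higher. *Kcnj13* passed the filter only through its *Snord116del* Zt +6 value of 2.20 FPKM. By FPKM alone, *Ttr*, *Folr1*, *Sostdc1*, *Aqp1* and *Slc4a5* were lower in *Snord116del* at Zt +6 and the other listed markers higher. At a common median 0 of the tested markers were higher and 1 lower. The part of these markers in the *Htr2c* values was not tested.

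The 6 markers in the table of the interneuron class that carries *Htr3a* summed to 1167, 701, 1981 and 2929 FPKM, mostly *Cck*. The order of this sum was unlike that of *Htr3a*, but the members differed. *Reln*, at 2.00, 5.66, 1.10 and 1.37 FPKM, had the group order of *Htr3a*. *Cnr1* was also highest in *Snord116del* Zt +6, whereas *Vip*, *Cck*, *Calb2* and *Npy* were not. Serotonergic neuron markers summed to 1.19, 2.55, 0.816 and 1.02 FPKM with none of 5 tested, and *Tph2* and *Slc6a4* were under 0.4 FPKM in every group. The sums in the same order were 33.3, 98.5, 14.8 and 19.1 FPKM for astrocytes, 5.27, 18.6, 2.53 and 3.22 for endothelium, 21.3, 43.4, 21.3 and 33.6 for microglia, and 5.04, 10.0, 2.54 and 4.73 for hippocampus. For oligodendrocytes they were 445, 703, 718 and 1035 FPKM, and for striatum 211, 206, 354 and 582 FPKM. The striatum sums for Zt +6 hide their members, since 6 of the 8 tested were higher in *Snord116del* and 1 lower (median 0.98). Beside these stood 49.3% and 7.62% of all tested genes. At a common median 4 of the 8 were higher and 2 lower, beside 15% and 24.4%. At Zt +16, 6 of these 8 were higher and 0 lower, beside 19% and 0.204%, and 0 were called at a common median. No marker of any list was at 0 in all 4 groups. The sums for excitatory neurons, astrocytes, endothelium, microglia, hippocampus and serotonergic neurons were highest in *Snord116del* Zt +6, as *Htr5a* and *Htr2c* were. The median of all tested genes was highest in that group too, at 5.63 FPKM. There the excitatory sum was mostly *Camk2a* (688 FPKM) and the serotonergic sum mostly *Slc18a2* (1.63). Of the members of these lists, *Slc6a4*, *C1ql2* and *Tmem119* were not highest there. The part of these cell types in the *Htr5a* and *Htr2c* values was not tested. The table lists *Snord116* at 0 in all groups, so it gives no check of the deletion, and *Ipw*, a noncoding gene near the cluster, had 21.6, 3.40, 3.17 and 1.82 FPKM.

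ChIRP-seq peaks of WT replicate 1 lay at 6 of the 10 receptor genes, near the share over all genes. A peak was assigned to a gene when it lay inside it or within 2 kb. WT *116HG* replicate 1, with 78033 peaks, had 15 peaks at these 6 genes, and 59.4% of all genes of the table named in the annotation had such a peak. The 15 peaks were 0.0192% of the list (exact 95% interval 0.0108% to 0.0317%, counting error only). All 4 tested receptor genes had a replicate 1 peak, as did 93.6% of tested genes, and 2 of the 6 not tested did, beside 29.5% of such genes. Inside the 10 genes together there were 1.80 peaks per 100 kb, against 6.65 over all genes and 10.1 over tested genes. The median count inside a gene was 1 for the receptor genes, 1 for all genes and 4 for tested genes. Among receptor genes with a peak inside, the density ran from 0.552 at *Htr1f* (181 kb) to 78.6 at *Htr1b* (1.27 kb). The pooled density thus depends on the long genes. Of the 15 peaks, 13 lay over exons, 1 in an intron and 1 in a flank. WT *116HG* replicate 2, with 11145 peaks, had 3 peaks at *Htr4* and *Htr5a*, all in introns, and 13.9% of genes had one.

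*Htr5a* (chr5:28168487-28181626, plus strand) carried the most peaks. It had 7 in replicate 1, all over its second exon, which holds the end of the coding sequence and the untranslated 3′ part, with folds over input of 30.8 to 113. A count of 7 was more than in 69.3% of tested genes, whose median was 4. Per 100 kb, *Htr5a* had 53.3 peaks, fewer than the 78.6 that the 1 peak inside the short *Htr1b* makes and more than *Htr2a* (3.03), *Htr2c* (0.852) and *Htr1f* (0.552). *Htr5a* was the only receptor gene with peaks of both replicates within 10 kb of each other, the definition of a replicated peak, which 10.9% of all genes and 18% of tested genes met. The peaks of the 2 replicates did not overlap, and the single replicate 2 peak lay in the intron. The coding part of the first replicate 1 peak, chr5:28177456-28177623 on the plus strand, is shown as an example of the exonic sites, with the 32 bases at the middle of the printed stretch in capitals.
Htr5a, replicate 1, coding: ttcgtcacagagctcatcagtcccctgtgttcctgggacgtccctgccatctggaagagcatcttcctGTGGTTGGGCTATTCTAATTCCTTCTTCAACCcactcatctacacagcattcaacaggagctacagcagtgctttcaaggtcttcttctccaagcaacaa

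The replicated call at *Htr5a* rests on the single replicate 2 peak. How often the sequence of a peak recurs elsewhere in the genome is not reported here, so the replicated call carries no check against repeats.

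*Htr2a* (chr14:75040647-75106666, plus strand) had 2 replicate 1 peaks, both in its first exon. One, chr14:75041472-75042082, had a fold over input of 154, the highest at any receptor gene. A coding stretch of it, chr14:75041762-75042061 on the plus strand, is printed as the strongest site at a receptor gene, with the 32 bases at its middle in capitals.
Htr2a, replicate 1, coding: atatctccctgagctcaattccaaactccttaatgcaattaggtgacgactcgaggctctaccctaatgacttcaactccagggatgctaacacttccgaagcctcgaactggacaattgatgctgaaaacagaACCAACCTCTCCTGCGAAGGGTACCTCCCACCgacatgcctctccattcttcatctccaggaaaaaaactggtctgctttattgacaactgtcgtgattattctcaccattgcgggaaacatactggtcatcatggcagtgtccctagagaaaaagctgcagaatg

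*Htr2c* (chrX:143397056-143631820, plus strand) had 2 replicate 1 peaks, in the coding and untranslated parts of its last exon at chrX:143628768-143628889 and chrX:143631539-143631812. Each had a fold of 41.0, below the median of 55.3 of the replicate 1 list. They were 24.5 kb and 27.3 kb from the stretch that pairs with *Snord115*, and no list had a peak at that stretch. *Htr1b*, on the minus strand of chr9:81524950-81526222 and overlapped by the lincRNA gene *D430036J16Rik* on the opposite strand, had a coding peak at chr9:81525460-81525744 and a peak in its flank. The coding peak had a fold of 51.3, also below that median. *Htr1a* (chr13:106233773-106238213, plus strand), a single-exon gene, had 1 peak in its untranslated part. *Htr1d*, *Htr3a* and *Htr7* had no peak in any list, which says only that none passed the authors' thresholds.

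The control lists had peaks at 1 receptor gene, *Htr1f*, beside 10.8% of all genes. WT NSC (3648 peaks) and *Snord116del* *116HG* (1280 peaks) each had 1 and *Snord116del* NSC (3418 peaks) had 2, all in introns of this 181 kb gene. The 1 replicate 1 peak at *Htr1f* was intronic too, with a GC content of 7.35%. The remaining 5 genes with replicate 1 peaks had none in the controls, and 4 of them, all but *Htr5a*, had none in replicate 2 either. The control lists are far shorter than the 78033 peaks of replicate 1, so a missing control peak does not show specificity. The share of all genes with replicate 1 peaks that lack a control peak is not reported here.

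**Figure D5:**
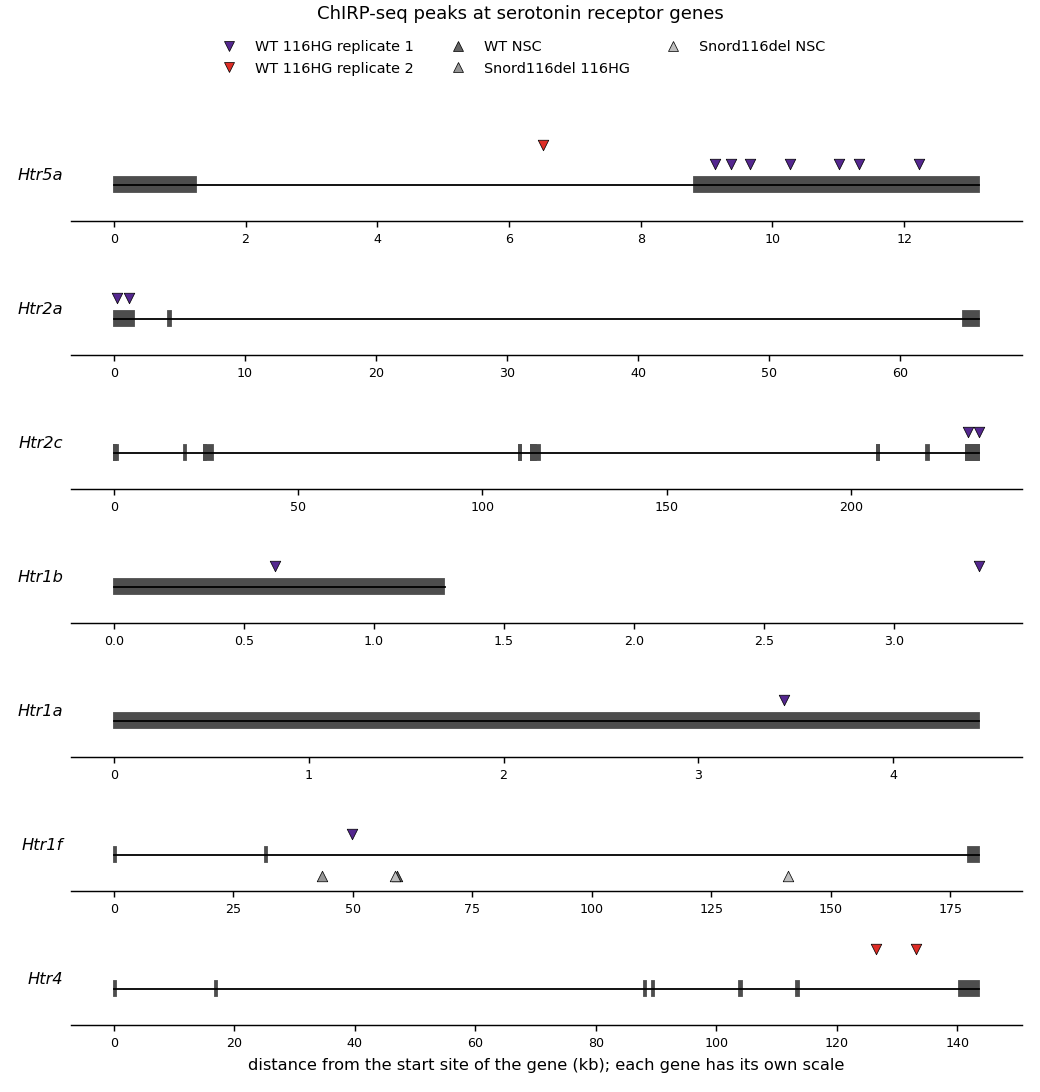
Peaks inside or within 2 kb of 7 receptor genes by distance from the start site (kb, own scale for each gene); boxes are annotated exons, downward triangles *116HG* peaks of WT replicate 1 (purple) and replicate 2 (red), upward triangles control libraries (grey). The 7 replicate 1 peaks of *Htr5a* sit on its last exon and the replicate 2 peak in its intron, and control peaks appear at *Htr1f* alone.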

How the data were processed

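RNA-seq of cortex and ChIRP-seq of brain were analysed from processed files. Per the submitters' processing notes the tools were CASAVA 1.8.0, TopHat2 2.0.5 and Cuffdiff 2.0.2 for RNA, and Bowtie2 2.0.0 and MACS 1.4.2 for ChIRP, with mm9. The authors deposited 1 Cuffdiff FPKM per gene and group. Their log2 fold change, q-value and significance columns were not used. The deposited peak lists give positions and, except WT *116HG* replicate 2, the fold over input, a ratio, and the authors' cutoffs were 5% for the false discovery rate and 20 for the fold. Read depths are not in these files, so no counting error of an FPKM is known.

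Members and gene lists were chosen with earlier results of these data known. All 10 members were named, and other genes came from lists of synthesis, transport and breakdown of serotonin, other receptor genes, G proteins, effectors, receptor partners and regulators, editing enzymes, microRNAs in introns of *Htr2c*, and markers of choroid plexus, striatum, hippocampus, interneurons of the *Htr3a* class, serotonergic neurons, cortical excitatory neurons, astrocytes, oligodendrocytes, microglia and endothelium. Beyond these, *Ipw* and *Snord116* were named after their values were seen. The fold rule used a pseudocount of 1 FPKM, since a table without replicates allows no test. Genes were matched by symbol to GENCODE vM1 on NCBIM37 (21853 of 23235). Length trends were running medians over 501 genes. Unbroken antisense runs were searched in annotated transcripts against every *Snord115* and *Snord116* copy. The sequence of 1 peak, and counts of how often peak sequences recur in the genome, are not reported here. The steps were tested on simulated data. Python 3.11.15, numpy 2.4.6, pandas 2.3.3, scipy 1.17.1 and matplotlib 3.10.9 were used.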

Additional observations from a re-analysis of the deposited data

Results flagged for a closer look

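For 2 genes the difference between *Snord116del* and WT had opposite signs at the 2 times. Of 10297 tested genes, 7989 had a difference above 0 at Zt +6 and 9965 at Zt +16. The share of all genes with opposite signs was not counted, so these 2 are not set apart from it. *Htr1d* was lower in *Snord116del* at Zt +6 (-0.25) and higher at Zt +16 (0.24), a difference between the times of -0.49 in log2(FPKM + 1). With every group scaled to the same total its Zt +16 value was -0.094, so the opposite signs depend on the scale. *Htr7* was higher at Zt +6 (0.47) and had -0.014 at Zt +16, a difference of 0.48. With 1 value per group neither difference was tested, and both genes had a mean under 1 FPKM.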

How the results depend on the processing

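No paired analysis was possible because the table holds 1 value per group. At Zt +6, the count of receptor genes past the fold rule was 1. It was 2 with a pseudocount of 0.1 FPKM or equal totals (*Htr2c* and *Htr5a*), 2 with no filter or a mean of at least 0.5 FPKM (*Htr1b* and *Htr5a*), and 0 with the length trend removed. At Zt +16 it was 0, and 1 with a pseudocount of 0.1 FPKM (*Htr1a*). In WT between times it was 0, and 1 with equal totals (*Htr5a*). In *Snord116del* between times it was 2, and 4 with no filter, a mean of at least 0.5 FPKM or equal totals, and 1 with equal medians, quantile normalization or a 2-fold rule (*Htr5a*). Between times in *Snord116del*, *Htr2a* had -0.80 with equal totals, and with the length trend removed *Htr1a* had 0.69 and *Htr2c* 0.17, so that the count of 2 then stood for *Htr1a* and *Htr5a*. The counts of list genes under equal medians, equal totals or no length trend were chosen after seeing the data. Of 296 values of single genes under the alternatives, 41 had the other sign, 18 of them at Zt +16; the cause was not tested. *Htr5a* kept its sign in every comparison and alternative except at Zt +16 with equal totals or the length trend removed. It passed the filter only through *Snord116del* Zt +6, and the comparisons with that group share that value. A sign kept in those comparisons carries no weight.

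Genes with replicate 1 peaks numbered 6, and 2 in the upper quartile of the fold (*Htr2a* and *Htr5a*). Genes with a replicated peak numbered 1, and 0 with overlap or 2 kb, 2 with 50 kb (*Htr1a* and *Htr5a*), and 2 to 6 when either replicate was left out. With a 10 kb flank the controls had 2 (*Htr1f* and *Htr2c*). The longest *Snord115* run at *Htr2c* was 19 bases, and 20 with G:U pairs. Depth was unknown, and most members lay under 1 FPKM, where 1 value per group limits every statement.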
